A study of Arabidopsis thaliana with 6 samples.

Results

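Jacalin-related lectins and myrosinase-binding proteins were represented by 5 genes, MBP1 (AT1G52040), AT1G52070, JAL23 (AT2G39330), AT1G73040 and AT1G52000. They were selected on their entry in the authors' deposited comparison table, which lists 274 of the 22746 probe sets on the array after a filter on the difference between the genotypes. Each gene had 1 probe set, and these 5 are all the entries of that table whose description names a jacalin lectin or a myrosinase-binding protein. The filter used the contrast described below, so the values of the 5 genes are a description and no test was made of them.

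The arrays measured total RNA of whole *Arabidopsis thaliana* seedlings of the Col 0 background, aged 15 days and grown on vertical plates in long days. There were 3 biological replicates of wild type and 3 of gapcp1gapcp2, which carries mutations in both GAPCP1 and GAPCP2. These genes encode the plastid form of glycolytic glyceraldehyde-3-phosphate dehydrogenase. The labels do not name the mutant alleles, and no line with a single mutation or a restored gene was measured. Per the labels' protocols, both genotypes were raised at the same time and RNA was taken from 3 sets, but the labels do not say whether a replicate number marks a set that the genotypes share. In whole seedlings, a change in the number of cells of a type and a change in RNA per cell cannot be told apart. Array medians lay between an intensity of 110.7 and 117. The files pair no probe set with GAPCP1 or GAPCP2, so the genotype labels could not be checked on their transcripts. The files give no detection calls.

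Jacalin-related lectins are sugar-binding proteins built from 1 or more copies of the jacalin fold, and the family is large in the cabbage relatives. Some members, the myrosinase-binding proteins, were first found in complexes with myrosinase, the enzyme that splits glucosinolates into toxic products when tissue is wounded. Others associate in roots with PYK10, a beta-glucosidase stored in endoplasmic reticulum bodies. Several members are known to respond to jasmonate, the wound and herbivore hormone.

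All 5 genes were brighter in gapcp1gapcp2, with ratios of the mean intensities (mutant over wild type) from 2.02 for MBP1 to 4.82 for AT1G52000. The lowest mutant array lay above the highest wild-type array for each of them. Over all 22746 probe sets, 15.5% had every mutant array above every wild-type array, and 5.86% were called higher by limma (Benjamini-Hochberg adjusted p under 0.05). All 5 genes met both criteria, but they were filtered on this contrast, so nothing is read from these counts.

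**Figure D1:**
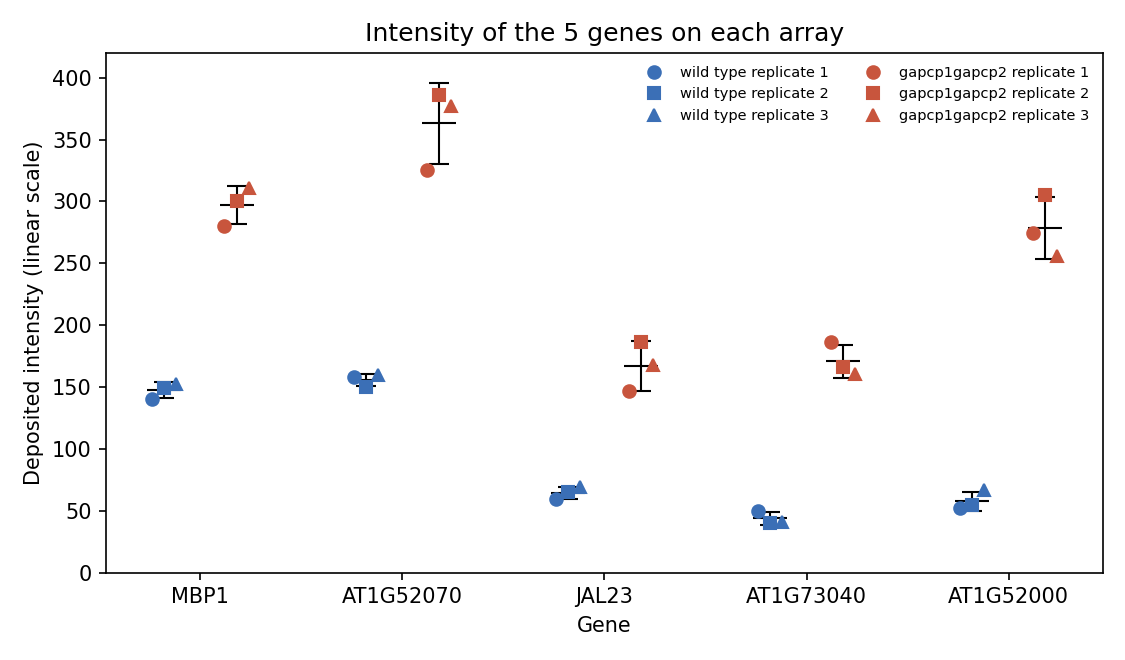
Deposited intensity (linear axis from 0) of the 5 genes on the 3 wild-type arrays (blue) and the 3 gapcp1gapcp2 arrays (red), with the replicate number as the marker shape. Horizontal dashes are means and bars are ± 1 SD (n = 3). For each gene the red points lie above all blue points.

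AT1G52000, annotated as a jacalin lectin family protein, had the highest ratio of the 5. Wild type gave an intensity of 52.4 on replicate 1, 54.4 on replicate 2 and 66.6 on replicate 3, and gapcp1gapcp2 gave 274, 305 and 256 on its own replicates in that order, which the values of the other genes follow. The wild-type arrays were all dim, with a coefficient of variation of 13.3%, the largest of the 5 genes in wild type. Every mutant array was several times brighter. The means were 57.8 ± 7.69 and 278 ± 24.9 (SD, n = 3 each), a log2 difference of 2.00 ± 0.11 (SE) on the log2(intensity + 16) scale. The ratio of a single mutant array to a single wild-type array ranged from 3.84 to 5.82.

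AT1G73040, also annotated as a jacalin lectin family protein, was the dimmest of the 5 in wild type relative to all probe sets, 70.4% of which were brighter there. Its intensity was 50.0, 40.3 and 41.1 in wild type and 186, 166 and 160.4 in the mutant. Every mutant array was more than 3 times as bright as every wild-type array. The means were 43.8 ± 5.39 and 171 ± 13.5, and the log2 difference was 1.64 ± 0.09 (SE). Its array-to-array ratios ranged from 3.21 to 4.61. In gapcp1gapcp2 the share of brighter probe sets was 40.2%.

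JAL23 encodes a lectin known from work on the PYK10 complex, where it counters the growth of the complexes. Its intensity was 59.6, 65.1 and 69.0 in wild type and 146, 187 and 168 in the mutant. Mutant replicate 1 was the lowest of the mutant arrays, yet it was 2.12 times the highest wild-type array. The means were 64.6 ± 4.68 and 167 ± 20.1, and the log2 difference was 1.18 ± 0.10 (SE).

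AT1G52070, a jacalin lectin family gene, was at 158, 150.4 and 159 in wild type and at 326, 386 and 377 in the mutant. Wild type varied by a coefficient of variation of 3.09%, the smallest of the 5, and the mutant arrays by 9.00%. Replicate 1 was again the lowest mutant array. The means were 156 ± 4.82 and 363 ± 32.7, and the log2 difference was 1.14 ± 0.08 (SE).

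The probe set of MBP1, a myrosinase-binding protein, was at 140.4, 149 and 152 in wild type and at 280.5, 300.5 and 311 in the mutant. The groups did not overlap, and the smallest array-to-array ratio was 1.84. The means were 147 ± 6.30 and 297 ± 15.5, and the log2 difference was 0.94 ± 0.05 (SE). This was the only one of the 5 probe sets with an ID suffix (_s_at) that marks probes shared between transcripts. Its description in the authors' deposited table names F-ATMBP, which RefSeq lists as another name of the adjacent gene MBP2 (AT1G52030). Whether the signal came from MBP1, MBP2 or both was not tested.

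By log2 difference the order was thus AT1G52000, AT1G73040, JAL23, AT1G52070 and MBP1. JAL23 and AT1G52070 differed by 0.04, less than the standard error of either, so their order is not resolved. The next step up, from JAL23 to AT1G73040, was 0.46, and from there to AT1G52000 it was 0.35, each larger than the standard errors of the genes compared. The 3 genes with a wild-type mean under 70 were the 3 with the highest log2 differences, and their values depended most on the pseudocount. With a pseudocount of 64 the log2 difference of JAL23 (0.84) was lower than that of AT1G52070 (0.95), which turned the order of this pair, and so did leaving out wild-type replicate 1 (1.135 against 1.147).

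**Figure D2:**
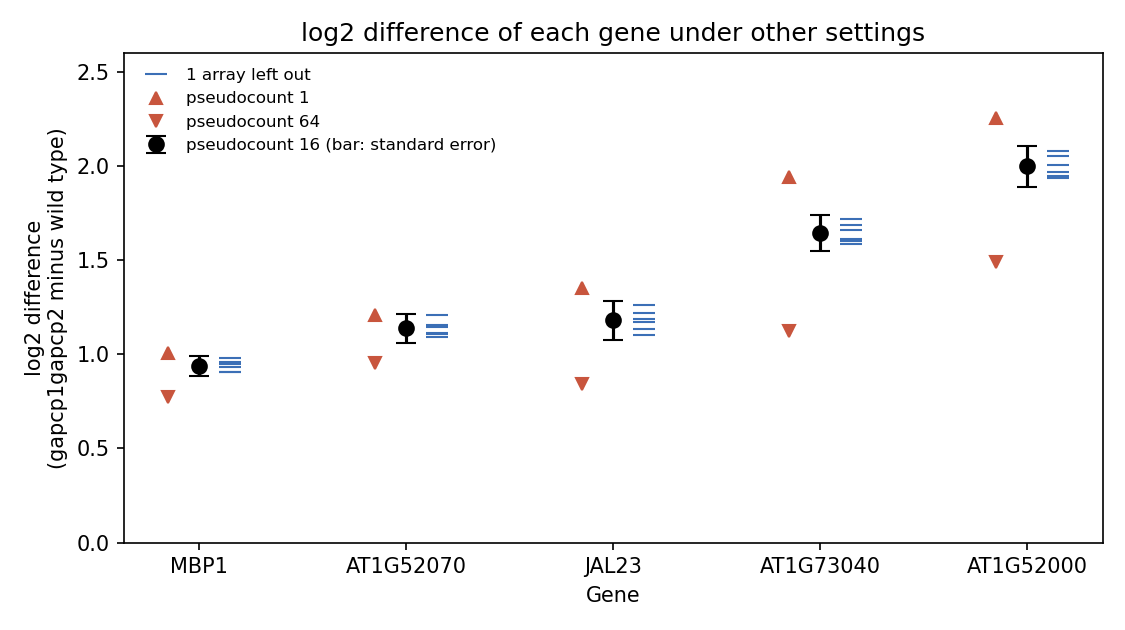
Difference of the mean log2 intensity (gapcp1gapcp2 minus wild type) for each gene. Black points use a pseudocount of 16 with the standard error as the bar, red triangles use pseudocounts of 1 and 64, and blue dashes leave out 1 array each. AT1G52000 stayed highest and MBP1 lowest in each setting drawn, and AT1G73040 moved from 1.94 at a pseudocount of 1 to 1.12 at 64.

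Among all 22746 probe sets the median log2 difference was -0.01 and the highest percentile began at 1.00. AT1G52000 was exceeded by 39 probe sets, AT1G73040 by 69, JAL23 by 148, AT1G52070 by 159 and MBP1 by 260. These ranks describe the choice of genes, since the table was filtered on fold.

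**Figure D3:**
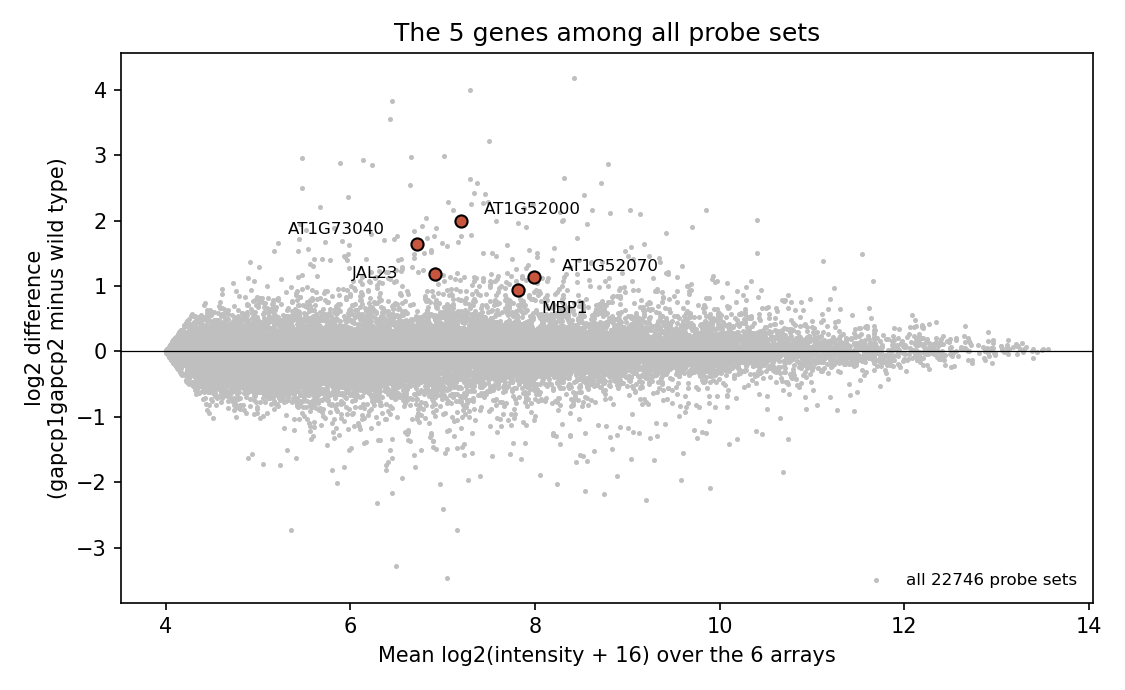
Difference of mean log2(intensity + 16), gapcp1gapcp2 minus wild type, against the mean over the 6 arrays for all 22746 probe sets (grey) and the 5 genes (red). The 5 genes lie between 0.94 and 2.00 on the vertical axis, at middle intensities.

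The 5 genes did not rank the arrays alike within a genotype. In wild type, replicate 3 was the brightest for 4 genes and replicate 1 for AT1G73040. In gapcp1gapcp2, replicate 1 was the dimmest for MBP1, AT1G52070 and JAL23 but the brightest for AT1G73040. With 3 arrays per genotype these orders are given as values only. The spread between wild-type arrays was below the median SD of probe sets of like intensity for all 5 genes. In the mutant it was below that median only for MBP1 (15.5 against 17.9), and for JAL23 it was 20.1 against 12.0. The authors' filter included a p up to 0.05, which favours probe sets with a small spread within a genotype. Nothing is therefore read from these comparisons of spread.

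In the authors' deposited table the folds of the 5 genes were 2.00 for MBP1, 2.33 for AT1G52070, 2.56 for JAL23, 3.97 for AT1G73040 and 4.67 for AT1G52000. MBP1 lay at the edge of the fold filter, since the lowest fold of any higher probe set in the authors' deposited table was also 2.00. JAL23 lay close to the filter on the difference, with a difference of 102 in the authors' deposited table against a minimum of 100. Probe sets just outside these limits carry no gene name here. For AT1G73040 the group means in the authors' deposited table, 38.7 in wild type and 154 in the mutant, were below all 3 arrays of the same genotype. Such a mean, beyond what the arrays span, was listed for 50 of the 274 entries, and among the 5 genes for AT1G73040 only. The authors' separately deposited fold change data number the baseline arrays 10 to 12 and the experiment arrays 1 to 3. It is therefore unknown whether the authors' deposited table rests on these 6 arrays alone.

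In the RefSeq annotation (TAIR10.1), 4 of the 5 genes are on chromosome 1 and JAL23 is on chromosome 2. AT1G52000, MBP1 and AT1G52070 lie in 1 stretch, with 7 annotated genes between the outer members, MBP1 included. MBP2, AT1G52050 and AT1G52060, further genes of the family, are in the same stretch. JAL22 is separated from JAL23 by 1 gene. None of these neighbours other than MBP1 is paired with a probe set in the authors' deposited table, so their values are unknown here. Neighbouring copies of a family can share probe sequence, and cross-hybridisation between them was not tested. AT1G73040 lies apart from both stretches.

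A list of 20 loci of the jacalin family, including the nitrile specifier proteins with a jacalin domain, had 5 members with a named probe set, the 5 genes above. The other 15, among them PYK10-binding protein PBP1 and the jasmonate-responsive gene JR1, have no value here. The lists of myrosinases and other beta-glucosidases (11 loci) and of specifier and modifier proteins, which direct the products of glucosinolate breakdown (8 loci), had none. The endoplasmic reticulum body list had 1 of 15, JAL23. A gene could be named only where the authors' filter had kept it, so the lists do not show how many of their members changed.

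The list of glucosinolate synthesis had 1 of 27 members with a named probe set. This was FMO GS-OX2, which oxidises the side-chain sulfur of methionine-derived glucosinolates. Its intensity was 41.1, 48.9 and 70.1 in wild type and 167, 211 and 179 in the mutant, so the groups did not overlap. The means were 53.4 ± 15.0 and 185 ± 22.6, and the log2 difference was 1.55 ± 0.20 (SE). This lies above the difference of JAL23 (1.18). It is below that of AT1G73040 (1.64) by less than the standard error of either, so that order is not resolved.

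Of 20 loci of jasmonate synthesis and response, 4 were paired with a probe set by the authors' deposited table, and limma called each of the 4 higher, against 5.86% of all probe sets. The filter on this contrast decided which could be named, so nothing is read from this count. LOX2, a plastid lipoxygenase that starts jasmonate synthesis, had means of 1769 ± 62.1 and 4991 ± 114 and a log2 difference of 1.49 ± 0.03. CORI3, a cystine lyase gene induced by jasmonate, had means of 475 ± 30.5 and 1202 ± 128 and a log2 difference of 1.31 ± 0.10. The other 2 lie on probe sets shared between transcripts, one assigned to AOC1, of allene oxide cyclase, and one assigned to VSP1 but described as VSP2, a vegetative storage protein. Their log2 differences were 1.08 ± 0.11 and 1.38 ± 0.07. On these 4 filtered probe sets every mutant array was above every wild-type array, as on 15.5% of all probe sets.

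Seedlings contain roots. Of 16 root markers, 3 had a named probe set, CASP1 and ESB1 of the Casparian strip and the tonoplast channel TIP2;3, and the other 13 have no value here. The 3 were kept by the same filter, and all 3 were lower in gapcp1gapcp2, with log2 differences of -1.50 ± 0.08, -1.29 ± 0.04 and -1.57 ± 0.08. Limma called each of the 3 lower, as it did 1167 of all 22746 probe sets. The filter on this contrast decided which markers could be named, so nothing is read from this count. Their summed intensity was 1547 to 1568 on the wild-type arrays and 514 to 567 on the mutant arrays, and none was at 0. The summed intensity of the 5 lectin genes was 460 to 489 in wild type and 1213 to 1344 in the mutant. Both sums hold only probe sets that the filter on this contrast had kept, so nothing is read from their opposite directions. The 5 leaf markers and the 9 flower and seed markers had no named probe set, so the tissue label could not be checked against them. The part of the root share of the tissue in the lectin values was not tested.

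AT5G03350, described as a legume lectin family protein, was the other lectin noticed in the table and was chosen after its values were seen. It belongs to another lectin fold. Its intensity was 464, 418 and 426 in wild type and 947, 1099.7 and 1031 in the mutant, a log2 difference of 1.20 ± 0.08.

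**Figure D4:**
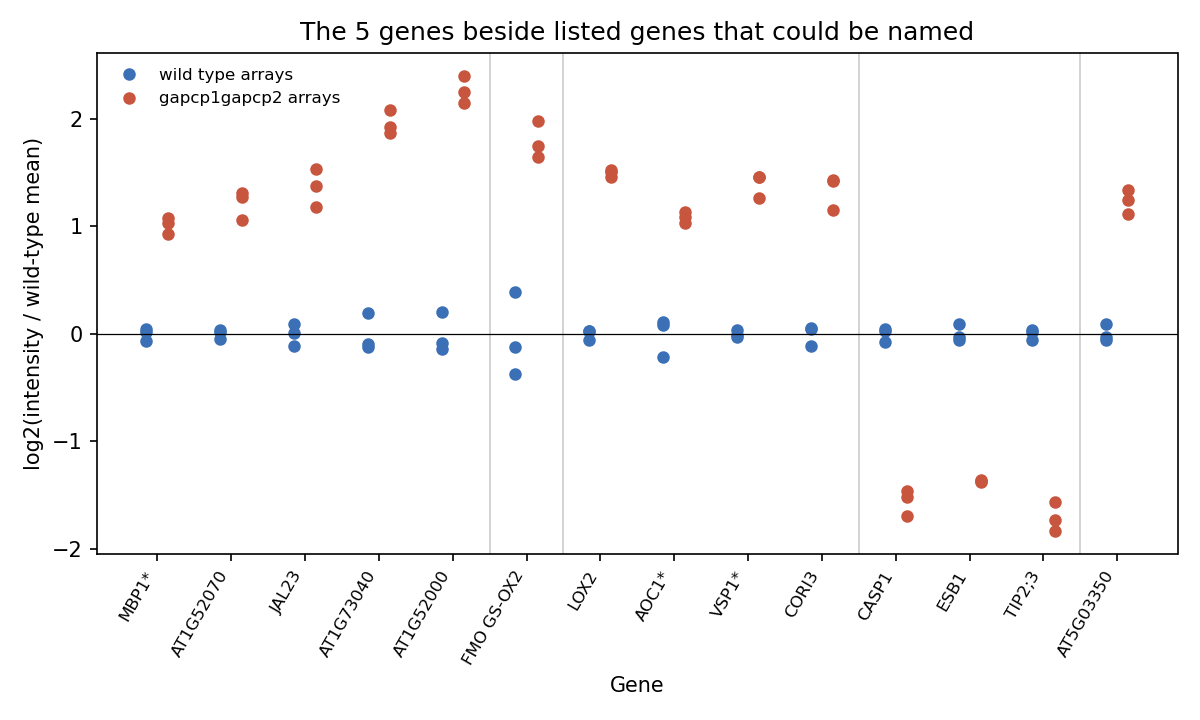
Intensity on each array relative to the gene's own wild-type mean (log2 axis, no pseudocount) for the 5 genes, FMO GS-OX2, 4 jasmonate genes, 3 root markers and AT5G03350, separated by vertical lines, with wild-type arrays in blue and gapcp1gapcp2 arrays in red. An asterisk marks a probe set shared between transcripts. The mutant points lie above wild type for all genes drawn except the 3 root markers.

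Each of the 5 genes was correlated over the 6 arrays with 252 probe sets of the authors' deposited table that belong to 1 locus outside the family. The correlations are on the log2(intensity + 16) scale and carry no test. Between 138 and 150 probe sets reached a Pearson r of 0.95 for each gene, so a high r was common among probe sets that the filter had kept. The authors' deposited table held 168 higher and 106 lower probe sets, and a lower one could not reach a high positive r here. A high r over these 6 arrays thus largely restates the filtered genotype difference. The order of the nearest genes given below is not resolved, and nothing is read from it. For AT1G52000 the nearest were AT3G44970, a cytochrome P450 family gene, BGL2, the pathogenesis-related glucanase PR2, and DFR, dihydroflavonol reductase of anthocyanin synthesis (r = 0.9987, 0.9986 and 0.9985). For AT1G73040 they were AT4G14020, LSU1, named for its response to low sulfur, and the glutathione transferase GSTF12 (r = 0.9980, 0.9968 and 0.9965). JAL23 was nearest to SIB1, a sigma factor binding protein gene, to CORI3 and to AT2G43610, a glycoside hydrolase family gene (r = 0.9990, 0.9976 and 0.9974).

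AT1G52070 was nearest to the thioredoxin gene TH8 (r = 0.9999), the starch synthase gene GBSS1 (0.9989) and CGLD27 (0.9989). MBP1 was nearest to the glycerophosphodiester phosphodiesterase gene SRG3, the ferric reductase gene FRO3 and AT1G75280, described as a putative isoflavone reductase (r = 0.9991, 0.9991 and 0.9987). Similar correlation did not mean similar size. TH8 had a log2 difference of 2.99 and CGLD27 one of 1.00, against 1.14 for AT1G52070. All of these r values come from the same 6 arrays.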

How the data were processed

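RNA of whole *Arabidopsis* seedlings was measured on 6 one-colour Affymetrix arrays, grouped by the sample titles. The titles number the replicates. The description fields name embryo stages, against every other label, and were not used. The authors deposited a linear intensity for every probe set of each array. GCOS is named in the submitters' processing notes, and the scaling is not given in the sources used here. The authors also deposited a comparison table with group mean intensity, a signed fold change score, the difference of means and a p-value. Its filter was a p up to 0.05 with a fold above 2 and a difference above 100. These limits are stated in fold change data that the authors deposited separately from that table.

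Intensities below 0 (1.85% of values) were set to 0 once the files had been seen. The log2(intensity + 16) values were then used as they are. Limma 3.58.1 (lmFit, eBayes, two-sided, R 4.3.3) was run on all 22746 probe sets with Benjamini-Hochberg adjustment and a threshold of 0.05, using the 6 arrays and no block. It serves here as the background only. The steps were tested on simulated data, with changes planted only in probe sets at or above the median brightness in wild type. JAL23, AT1G73040 and AT1G52000 were dimmer than that, with 62.4%, 70.4% and 64.8% of probe sets brighter. The number of arrays, 3 per genotype, limits the precision.

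The genes and lists were chosen with earlier results of these data known. Named are all 5 genes, the list members that the authors' table pairs with a probe set, and for each gene the 3 probe sets of that table with the highest Pearson correlation, shared probe sets left out. Locus names came from RefSeq (TAIR10.1). Sequences were not analysed here. Alternatives were quantile normalisation, median centring, pseudocounts of 1 and 64, leaving out the dimmest 40%, trend and robust moderation, the replicate number as a block, and leaving out each array. Same-numbered arrays deviated from their group means with correlations of 0.234, 0.0186 and 0.0174. Arrays of unlike number were not compared, so these values do not show whether the numbers mark pairs. The numbers were not taken as pairs in the main fit. The other steps ran in Python 3.11.15 with pandas 2.3.3, numpy 2.4.6 and matplotlib 3.10.9.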

Additional observations from a re-analysis of the deposited data

How the results depend on the processing

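Of 65 alternative values of the 5 log2 differences, 56 moved by less than 1 SD between arrays, 9 moved by more and 0 reversed. Most of the 56 could not have moved by more. Leaving out the dimmest probe sets, trend and robust moderation and the replicate block leave each difference unchanged by construction. With so few arrays per genotype, leaving out 1 array cannot shift a difference by 1 SD. The count of 56 is therefore not read as stability. All 9 values that moved by more came from the pseudocount. At 1 the log2 difference was 1.01 for MBP1, 1.35 for JAL23, 1.94 for AT1G73040 and 2.25 for AT1G52000. At 64 it was 0.77 for MBP1, 0.95 for AT1G52070, 0.84 for JAL23, 1.12 for AT1G73040 and 1.49 for AT1G52000. A larger pseudocount shrinks the fold of dim probe sets by construction. Leaving out 1 array gave 0.91 to 0.98 for MBP1, 1.09 to 1.21 for AT1G52070, 1.10 to 1.26 for JAL23, 1.59 to 1.72 for AT1G73040 and 1.93 to 2.08 for AT1G52000.

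Over all probe sets limma called 2501 (1334 higher, 1167 lower). The other settings with all 6 arrays and no block gave from 2149 calls (pseudocount 1) to 3502 (trend and robust moderation). With 1 array left out the total lay between 1190 and 2347, with 620 to 1362 called higher and between 560 and 985 lower. It fell to 1190 when mutant replicate 2 was left out, to 1197 for mutant replicate 3 and to 1422 for wild-type replicate 2. The replicate block gave 1687 calls (910 higher, 777 lower). The cause of that loss of calls was not tested. Such a balanced block cannot change the 5 differences, but it changed their standard errors. These fell from 0.053 to 0.01 for MBP1, from 0.104 to 0.071 for JAL23 and from 0.094 to 0.024 for AT1G73040. They rose from 0.077 to 0.087 for AT1G52070 and from 0.11 to 0.143 for AT1G52000. The listed genes stayed at 10 called higher and 3 lower at both other pseudocounts. Of all 22746 probe sets, 1148 were called higher and 1001 lower at a pseudocount of 1, and 1623 and 1409 at 64. The authors' filter on this contrast decided which listed genes could be named, so nothing is read from their counts.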
